A study of Caenorhabditis japonica with 3 samples.

Results

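A module of 162 genes of the nematode *Caenorhabditis japonica* was low in the early embryo, rose in the middle of the sampled time course and kept a comparable level late in it. The members were selected on their measured values. From a table of read counts of 3955 genes, the 3392 genes with exactly 1 listed 3′ end peak were taken. For each gene, reads were pooled over 4 sets of embryos: the 1-, 2- and 4-cell embryos, the embryos at 60 to 100 minutes after the 4-cell stage, those at 140 to 290 minutes (the middle window) and those at 300 to 430 minutes (the late window). A pooled level is given as CPM, the gene's reads per 1000000 reads of all genes in the table. A member had at least 50 CPM in the middle window, at least 4 times its level in each of the 2 earlier sets, and a late level above 0.5 times and below 2 times its middle level. The limits on the middle window and the earlier sets were met by 287 genes. Of these, 162 are the members, 53 had a late level at or under 0.5 times the middle level, and 72 had a late level at or over 2 times the middle level.

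In an animal embryo the first RNAs are maternal, loaded into the egg by the mother. They are cleared in steps while the embryo's own genome is switched on gene by gene, so a transcript that is scarce in the first cell divisions and abundant later is usually described as zygotic. In *Caenorhabditis* embryos, genes switched on before and during gastrulation include those that fix the fates of the founder lineages, and genes used in differentiating tissues follow.

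The series holds 46 single embryos measured with CEL-Seq, a method that gives the polyA RNA of each embryo its own barcode, pools the embryos and sequences transcript 3′ ends. Mothers were cut open to obtain the embryos, which were kept at 20 °C from the 4-cell stage, and no genotype, mutation or drug is named in the labels for any group. The embryos were pooled in 3 libraries, and the table gives 16 embryos of the early one (1, 2 and 4 cells, then 10 to 130 minutes), 16 of the middle one (140 to 290 minutes) and 14 of the late one (300 to 430 minutes), at steps of 10 minutes. Each time has 1 embryo in the table, so the spread between embryos includes their difference in age, and a library and its time window cannot be told apart.

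The reads listed per embryo ran from 1719 to 454691 with a median of 61827. The table lists selected genes only, so these totals are not the full sequencing depth. An embryo under 15457 reads, 0.25 of the median, is called shallow here. There were 14 such embryos: 2 of 5 at 10 to 50 minutes, 3 of 3 at 110 to 130 minutes, 4 of 16 in the middle window and 5 of 14 in the late one. The sources name no molecular identifiers, and the counting intervals below cover counting error only. The labels list further embryos at 330 and 340 minutes and barcodes up to 16 for the late library. The table has 1 column at each of these times, with barcodes 15 and 16 and unexplained suffixes, and no late column with barcode 4 or 5. Whether these columns hold the further embryos is not stated, and embryos of the late library without a column were not analysed here. The files give identifiers and no gene names, so 9 gene lists of tissue and pathway markers matched 0 identifiers. No member can be assigned a function from these files, and at most 2 members per direction are named in each comparison.

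The levels in the windows that chose the members are a description and were not tested. The median pooled level of the 162 members was 3.20 CPM in the 1-, 2- and 4-cell embryos, 10.4 CPM at 60 to 100 minutes, 142.7 CPM in the middle window and 154.6 CPM in the late window. The middle level ran from 51.4 to 3173 CPM, with quartiles of 86.03 and 296 CPM, so the module spans weakly and strongly expressed genes. There were 58 members under 100 CPM and 9 at 1000 CPM or more. The 2 highest members held 12.2% of the summed middle level and the 10 highest held 35.4%. The late level was above the middle level in 87 members and below it in 75, with a median ratio of 1.08. At the borders of the choice, the lowest middle level of a member was 51.4 CPM and the nearest gene outside had 49.8 CPM. The ratio of the middle level to that of the 1-, 2- and 4-cell embryos was 4.0001 just inside and 3.86 just outside, and that to 60 to 100 minutes was 4.03 and 3.71. The late to middle ratio was 0.502 just inside and 0.497 just outside at the lower border, and 1.92 and 2.01 at the upper one.

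**Figure D1:**
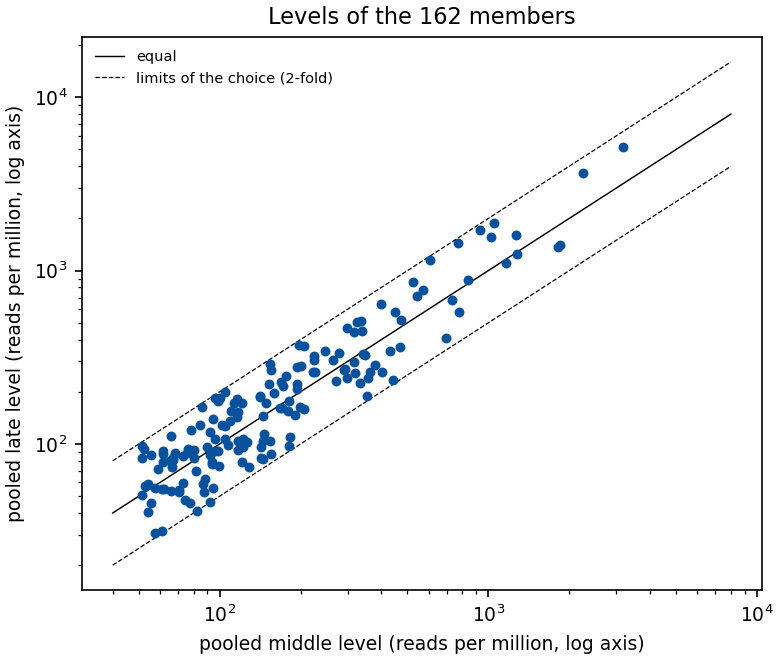
Pooled late level against pooled middle level of the 162 members, in CPM on log axes; each point is a gene, the solid line marks equal levels and the dashed lines the 2-fold limits by which members were chosen. Middle levels run from 51.4 to 3173 CPM, and 87 points lie above the line of equal levels.

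Low early did not mean absent for every member. The embryos at 10 to 50 minutes played no part in the choice, and there the median member had 2.29 CPM and 51 members had 0 reads. There were 22 members at 50 CPM or more in at least 1 of the 3 early sets (1 to 4 cells, 10 to 50 minutes, 60 to 100 minutes), and 7 reached that level in all 3. At the other end, 17 members had 0 of 1690061 reads in the whole early library, which allows a level of up to 1.78 CPM. In the 1-, 2- and 4-cell embryos themselves, 57 members had at least 3 reads and 11 had 50 CPM or more. The name zygotic therefore describes a rise over a low starting level, and for these members a rise over RNA that was already measured in the first cells.

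CJA13782, the member with the next to highest middle level, was one of the 11. The 3 embryos of 1, 2 and 4 cells had 483, 184 and 395 CPM of it. Pooled, it had 569 CPM at 10 to 50 minutes, 2255 CPM in the middle window and 3648 CPM in the late window. The highest of the 162, CJA14930, was instead nearly absent early, with 28 reads in the 16 early embryos together. Pooled, it had 1668 CPM at 140 to 210 minutes, 3881 CPM at 220 to 290 minutes, 7177 CPM at 300 to 360 minutes and 3657 CPM at 370 to 430 minutes. Its 8 embryos at 140 to 210 minutes ran from 506 to 2909 CPM with a median of 1348 CPM, and its 7 embryos at 300 to 360 minutes ran from 2762 to 11823 CPM with a median of 6213 CPM. These 2 sets overlapped only between 2762 and 2909 CPM.

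The sum of the 162 levels in each embryo describes the course of the module as a whole. It was 2056 to 3066 CPM in the 3 embryos of 1 to 4 cells, 2160 to 3576 CPM in the 5 embryos at 10 to 50 minutes and 3115 to 6034 CPM in the 5 embryos at 60 to 100 minutes. The 3 embryos at 110, 120 and 130 minutes had 9524, 5915 and 9270 CPM. The embryo at 140 minutes, the earliest of the middle library, had 24318 CPM. From there on all 30 embryos of the middle and late libraries lay between 24318 and 71630 CPM. None of them overlapped with the 16 embryos of the early library. Members were chosen for low early and higher middle and late pooled levels, so this gap follows largely from the choice and was not tested. The step between 130 and 140 minutes falls on the border of 2 libraries, so the change with age and any effect of the library cannot be told apart. In whole embryos, fewer cells of a type and less RNA per cell cannot be told apart either.

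The pooled sum was higher in each later span of the middle window. It was 25082 CPM at 140 to 170 minutes, 40692 CPM at 180 to 210, 45014 CPM at 220 to 250 and 53330 CPM at 260 to 290 minutes. It stayed near that level at 300 to 340 minutes, with 56644 CPM, and at 350 to 390 minutes, with 55279 CPM, and was lower at 400 to 430 minutes, with 43835 CPM. In plain CPM of single embryos the late window ran from 41174 to 61553 CPM, a narrower range than the 24318 to 71630 CPM of the middle one. This depends on the scaling of embryos. The scaling factors (TMM) of the count model described below ran from 0.596 to 2.92 in the late window and from 0.736 to 2.51 in the middle one. The highest middle value, 71630 CPM at 230 minutes, did not come from a single gene: the largest contribution there was 7.63% of the sum. It was, however, the embryo in which 34 of the 162 members had their highest CPM of the middle window, the most of any embryo.

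**Figure D2:**
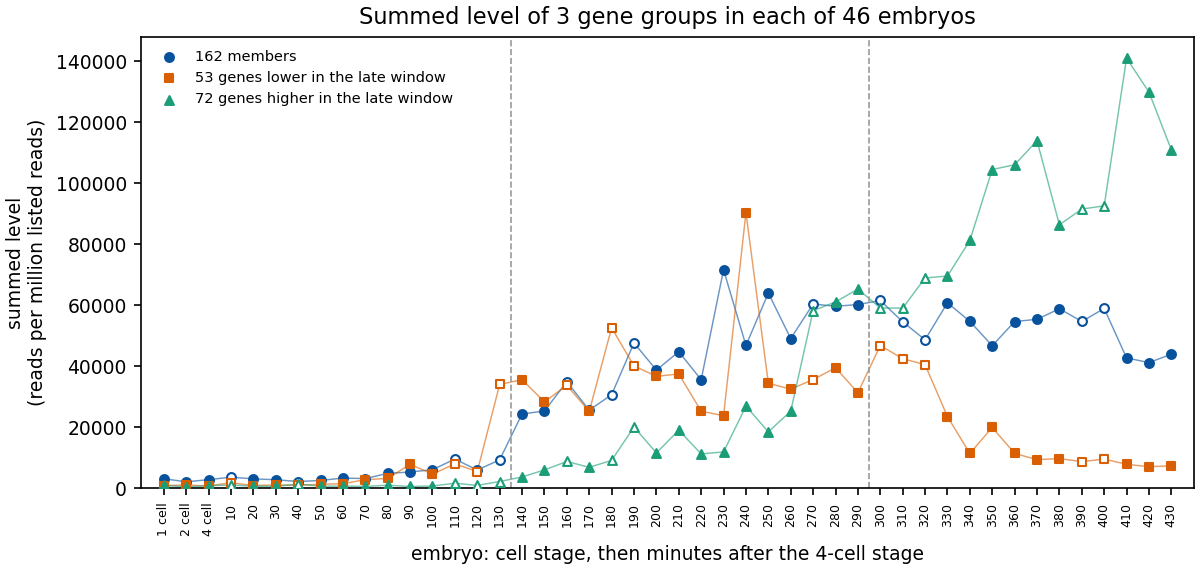
Summed level of the 162 members (circles), of the 53 genes with the same rise but a lower late level (squares) and of the 72 with a higher late level (triangles) in each of 46 embryos, in CPM. Open symbols are the 14 shallow embryos and dashed lines are library borders. The members stay at or under 9524 CPM up to 130 minutes and lie between 24318 and 71630 CPM from 140 minutes on.

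The time at which a member reached a fixed share of its middle level fell in 2 spans for most members, in numbers that depend on the share and span used. Using spans of 4 embryos from 140 minutes on, 96 members (59.3%) had at least 50% of their middle level at 140 to 170 minutes. Another 61 (37.7%) first had it at 180 to 210 minutes. For 2 members it was first at 220 to 250 minutes and for 3 at 260 to 290 minutes. Earlier embryos were not searched, and 21 members had 50% or more at 110 to 130 minutes, where depth was low. At 140 to 170 minutes the median member stood at 57.0% of its middle level. The same median was 82.3% among the 53 genes with a lower late level and 16.7% among the 72 genes with a higher late level. These values follow in part from how the sets were chosen and were not tested. At 140 to 170 minutes the level was at least 50% of the middle level in 39 of the 53 (73.6%) and 15 of the 72 (20.8%).

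Once reached, the level was held by most members but not by all of them. At least 50% of the middle level was present in 154 members at 300 to 340 minutes, in 153 at 350 to 390 minutes and in 130 at 400 to 430 minutes. In all 3 late spans together it was present in 120 of 162 members, and 42 fell under it in at least 1 span. Counting the middle spans too, 105 of 162 members had it in every span from the first such span on. The choice required a pooled late level above 0.5 times the middle level, so these counts follow in part from the choice. They were not taken over all genes and were not tested. The median member stood at 109% of its middle level at 300 to 340 minutes, at 114% at 350 to 390 and at 79.9% at 400 to 430. These are plain CPM, and the sign of the members' median fitted late change depended on how embryos were scaled, as given below. There were 82 members that stayed between 50% and 200% of their middle level in every span from 180 to 430 minutes. Over all 162 members, the span of highest level was spread over the course: 9 members peaked at 140 to 170 minutes, 23 at 180 to 210, 30 at 220 to 250, 29 at 260 to 290, 29 at 300 to 340, 27 at 350 to 390 and 15 at 400 to 430 minutes. Sustained therefore describes the pooled late level, and 3 members had a late span under 10% of their middle level.

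**Figure D3:**
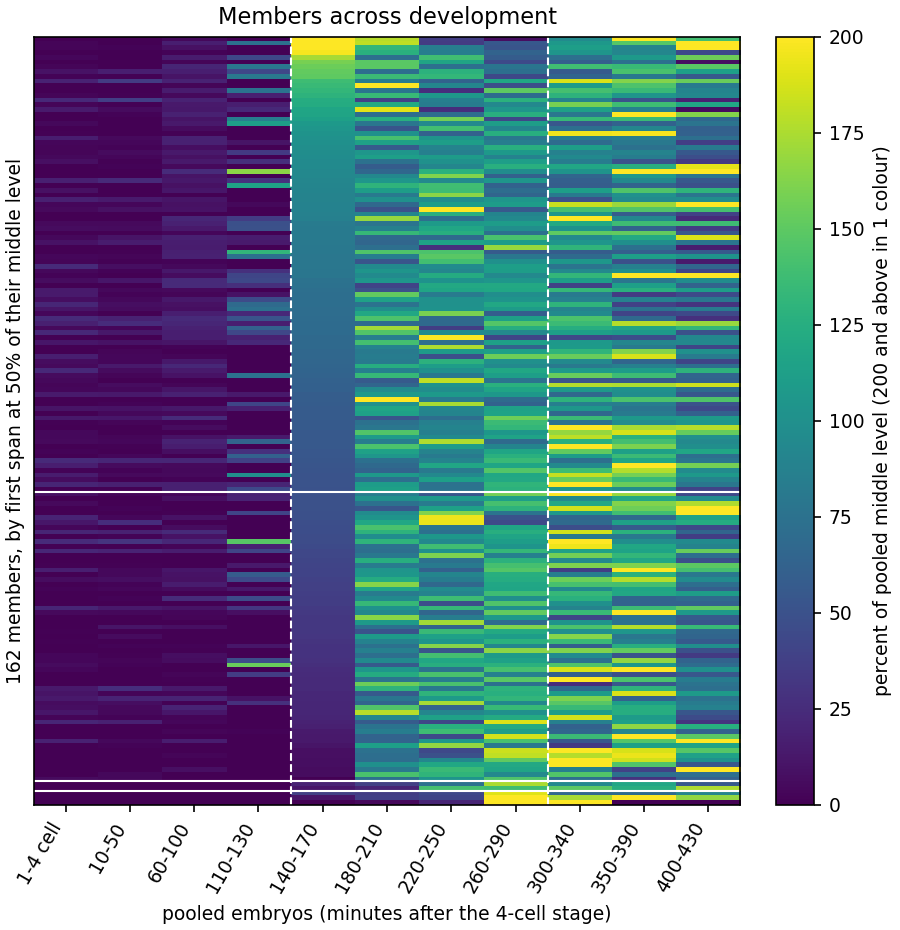
Pooled level of each of the 162 members in 11 spans of embryos, as a percent of its pooled middle level. White horizontal lines separate members by the first span at 50% or more, searched from 140 minutes on. Dashed lines are library borders. The upper block of 96 members is at 50% or more from 140 to 170 minutes, the next block of 61 from 180 to 210 minutes.

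Deep embryos weigh most in pooled levels. The embryo at 260 minutes, the deepest, gave the most middle-window reads for 94 of 162 members. For 5 members over 50% of the middle-window reads came from 1 embryo, and for 1 member over 50% of the late reads did. Reads of a member were nonetheless found in a median of 14 of 16 middle embryos and 12 of 14 late embryos.

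The choice used the pooled level of the middle window and not the course within it, which was tested gene by gene. A count model with a slope on minutes in each window gave the fitted log2 change from 140 to 290 minutes (edgeR quasi-likelihood F test over all 3955 genes, Benjamini-Hochberg adjusted p under 0.05). Of the 162 members, 35 rose (21.6%) where 9.03% of all genes did, and 2 fell (1.23%) where 3.67% of all genes did. The fitted change was positive in 142 members and negative in 20. Its median was 1.32 over the members and 0.26 over all genes. The share of members that rose lies above the background, but the choice bears on it. The choice took genes that were low before this window and bounded their late level. The excess over all genes is therefore not a result about the members. Among the 53 genes with a lower late level, 1 rose and 1 fell with a median of 0.15, and among the 72 with a higher late level, 61 rose and 0 fell with a median of 4.06. In plain pooled reads, 124 members (76.5%) were higher at 220 to 290 than at 140 to 210 minutes, with a median ratio of 1.39, and 54.4% of all genes were, with a median ratio of 1.04. Age and barcode number run together in the middle library, since barcodes descend with time there, and these cannot be told apart.

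The members that rose were mainly those with a later start. Of the 35, 4 had reached 50% of their middle level at 140 to 170 minutes and 26 at 180 to 210 minutes, and the 5 members with a still later start all rose. This follows from the same embryos and is a description.

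CJA39788 had the largest fitted rise, a log2 change of 12.13 ± 1.70 (SE, adjusted p = 1.72e-07). It had 1 read in the 8 embryos at 140 to 210 minutes and 137 reads in the 8 at 220 to 290 minutes, a ratio of pooled levels of 64.4 (95% exact counting interval 11.4 to 2564). The fitted value of a gene with so few reads at one end depends on the prior count and is no bound. The embryos at 220 to 290 minutes ran from 0 to 525 CPM with a median of 52.0 CPM, and 117 of the 137 reads came from the embryo at 280 minutes. The call held when any 1 middle embryo was left out (adjusted p up to 0.00211) and was lost with DESeq2 (adjusted p = 0.281, where the other settings reached down to 6.21e-09).

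CJA07104 had the next largest rise, a log2 change of 6.03 ± 1.57 (SE, adjusted p = 0.0041). It had 6 reads at 140 to 210 minutes, where the embryos ran from 0 to 82.1 CPM, and 110 reads at 220 to 290 minutes, where they ran from 0 to 857 CPM. The ratio of pooled levels was 8.62 (95% exact counting interval 3.84 to 24.0). The 2 sets of embryos overlapped, and the embryos at 250 and 280 minutes, at 857 and 269 CPM, stood above all others. The call was lost with DESeq2 and limma-trend, with adjusted p up to 0.145, and held when any 1 middle embryo was left out (up to 0.0409). Its pooled late level was 90.6 CPM at 300 to 360 and 90.5 CPM at 370 to 430 minutes. Single embryos were less even. At 300 to 360 minutes they ran from 0 to 138 CPM with a median of 24.99 CPM. At 370 to 430 minutes they ran from 0 to 149 CPM with a median of 92.5 CPM. Of the 62 reads at 300 to 360 minutes, 46 stand in the 340-minute column and 1 in the 330-minute column. Which embryos these 2 columns hold is uncertain.

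The 2 members that fell within the middle window had an early start, and their pooled levels were higher again in the late window. That return lies across the border of 2 libraries, so age and library cannot be told apart in it. CJA01785 fell by 6.12 ± 1.12 on the log2 scale (SE, adjusted p = 3.44e-05). Its pooled level was 139 CPM at 140 to 210 minutes (embryos from 0 to 302 CPM, median 82.9 CPM) and 10.1 CPM at 220 to 290 minutes (0 to 24.2 CPM, median 5.59 CPM). In the late window it had 57.0 CPM at 300 to 360 and 102 CPM at 370 to 430 minutes. Its change within the late window did not pass the test (log2 change 1.24 ± 1.11, SE, adjusted p = 0.613 in edgeR). It thus met the limits on pooled levels with a trough between 2 spans of higher pooled level. Of the 8 embryos at 140 to 210 minutes, 2, both shallow, had 0 reads.

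CJA03775 fell by 2.56 ± 0.86 on the log2 scale (SE, adjusted p = 0.0347). It stood at a pooled 240 CPM at 140 to 210 minutes (0 to 428 CPM, median 237 CPM) and 52.9 CPM at 220 to 290 minutes (0 to 89.7 CPM, median 45.3 CPM). It had 114 CPM at 300 to 360 and 214 CPM at 370 to 430 minutes. Its change within the late window did not pass the test (log2 change 1.76 ± 0.93, SE, adjusted p = 0.294 in edgeR). The call of its fall in the middle window was lost when any 1 of the embryos at 150, 170, 250, 260, 270 or 290 minutes was left out (adjusted p up to 0.197), and 1 member then fell in place of 2. It was also lost with DESeq2 and limma-trend (adjusted p up to 0.412).

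**Figure D4:**
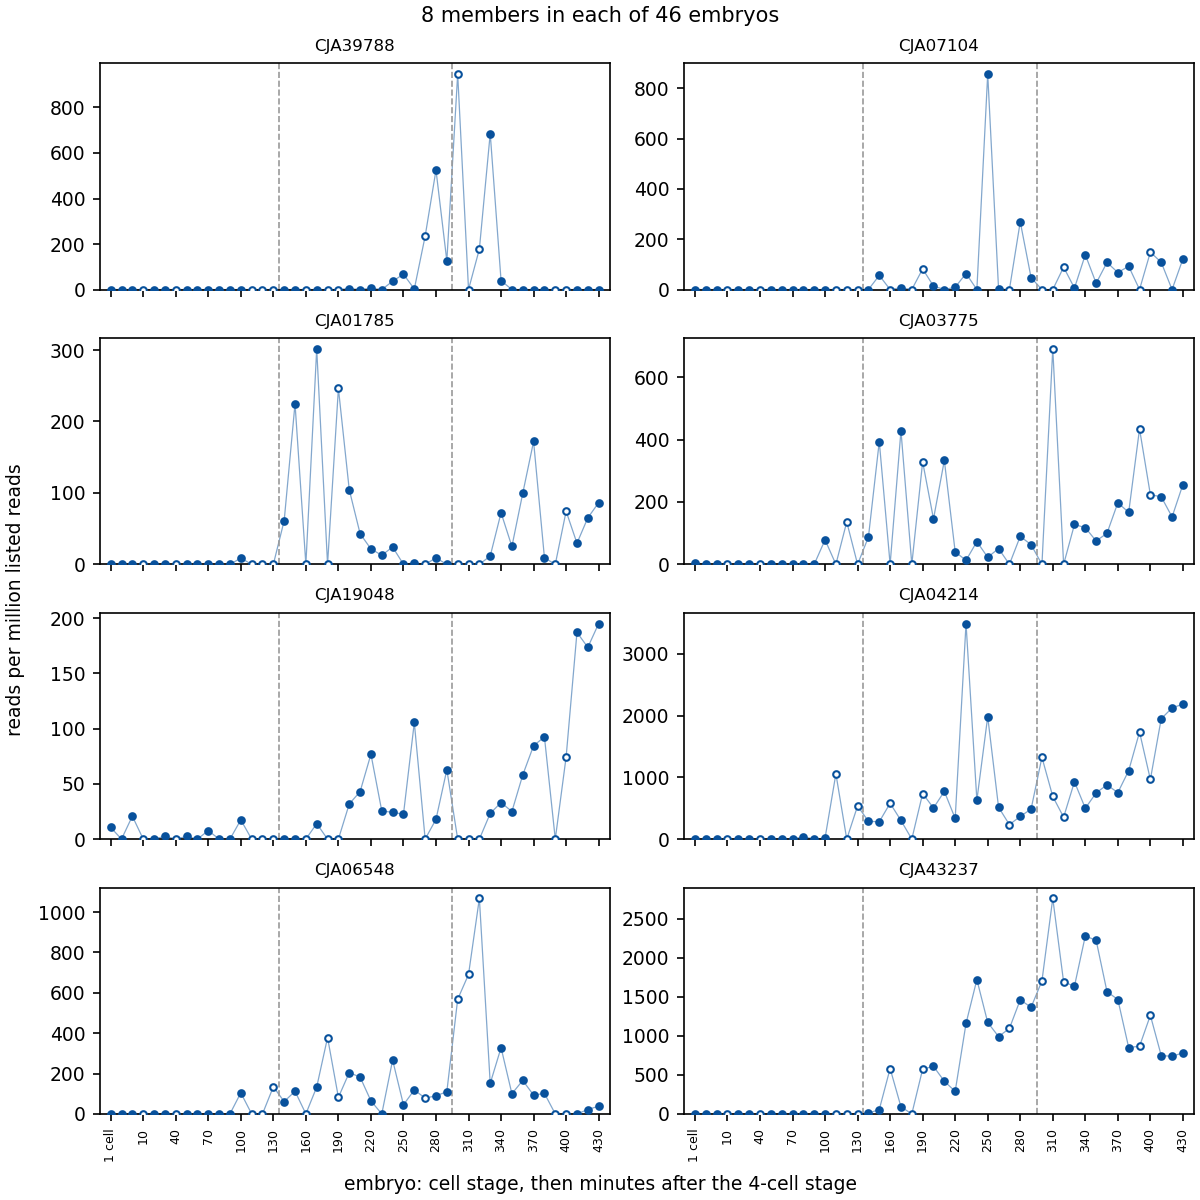
Level of 8 named members in each of 46 embryos, in CPM; open symbols are shallow embryos and dashed lines are library borders. CJA39788 shows reads mainly from 240 to 340 minutes, CJA01785 and CJA03775 show a trough at 220 to 290 minutes, and CJA43237 rises to 300 to 360 minutes and is lower after.

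Within the late window few members passed the test. From 300 to 430 minutes 2 members rose (1.23%) where 6.68% of all genes did, and 4 fell (2.47%) where 1.67% did, by the same edgeR test. The share of risers lay under the background and that of fallers near it. The fitted change was positive in 83 members and negative in 79, with a median of 0.06 against 0.24 over all genes. The members' median and its sign depended on the setting, from -0.47 with library size alone to 0.86 with limma-trend. The difference of the members' median from that of all genes was -0.18 in the reported fit and ran from -0.27 to 0.06 over the other settings. The choice itself left out genes whose late level was over 2 times the middle level. Barcodes ascend with time in the late library, apart from the columns at 330 and 340 minutes. Age and barcode number thus largely run together there too. Without 1 embryo, between 1 and 5 members rose and between 2 and 6 fell: 1 rose without the embryo at 300, 310, 320, 330, 380 or 410 minutes, 4 without that at 360 or 370, and 5 without that at 390, and 2 fell without that at 400 or 410 minutes. Among the 72 genes with a higher late level 20 rose and 0 fell, and among the 53 with a lower late level 0 rose and 5 fell.

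CJA19048 rose by a log2 change of 4.19 ± 0.91 (SE, adjusted p = 8.22e-04). Pooled, it stood at 33.6 CPM at 300 to 360 minutes (embryos from 0 to 58.0 CPM, median 23.2 CPM) and 137 CPM at 370 to 430 minutes (0 to 195 CPM, median 92.5 CPM), a ratio of 4.09 (95% exact counting interval 2.61 to 6.68). The embryos overlapped, and the 0 in the later set was a shallow embryo at 390 minutes.

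CJA04214 rose by a log2 change of 2.53 ± 0.80 (SE, adjusted p = 0.0339). Its pooled level was 694 CPM at 300 to 360 minutes (356 to 1326 CPM, median 750 CPM) and 1474 CPM at 370 to 430 minutes (753 to 2187 CPM, median 1735 CPM). This call was lost without the shallow embryos, without the embryos at 330 and 340 minutes, and with library size alone, DESeq2 size factors, DESeq2 or limma-trend, with adjusted p up to 0.136, and when any 1 of 9 of the 14 late embryos was left out, with adjusted p up to 0.193.

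CJA39788 also had the largest fall in the late window, a fitted log2 change of -13.1 ± 1.87 (SE, adjusted p = 3.05e-07). Its 138 late reads were at 300 minutes (5 reads), 320 minutes (2), 330 minutes (118) and 340 minutes (13). From 350 minutes on, 9 embryos had 0 reads, so its pooled level was at least 96.6-fold lower than at 300 to 340 minutes, with 3 reads over these 9 embryos as the floor and the 138 reads taken as exact. The 95% exact counting interval of the ratio ends at 77.5-fold lower. This gene was therefore present in a pulse from the later part of the middle window to 340 minutes, and met the limit on the late level through the embryos at 300 to 340 minutes. Most of those reads stand in the 330-minute column, whose embryo is uncertain. The call held without that embryo, with adjusted p of at most 8.87e-06 over all late embryos left out in turn, and was lost with DESeq2 (adjusted p = 0.132, the other settings down to 8.92e-08).

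CJA06548 fell by 4.14 ± 1.02 on the log2 scale (SE, adjusted p = 0.0035). It had a pooled 257 CPM at 300 to 360 minutes (100 to 1068 CPM, median 328 CPM) and 60.7 CPM at 370 to 430 minutes (0 to 102 CPM, median 21.7 CPM). The call was lost without the shallow embryos (adjusted p = 0.0826, the other settings down to 0.000332). Of these, 3, at 300, 310 and 320 minutes, held its highest levels of 568.2, 691 and 1068 CPM. These levels rest on 3, 2 and 12 reads. The deeper embryos at 330 and 340 minutes had 151 and 328 CPM.

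The difference between the late and the middle slope tests whether the course bent. Barcodes descend with time in the middle library and largely ascend in the late one. A bend with age and one with barcode number therefore cannot be told apart. Per 100 minutes, the late slope was lower than the middle one in 12 members (7.41%) where 2.86% of all genes passed, and higher in 2 (1.23%) where 1.42% did, a share near the background, by the edgeR test. The difference was negative in 122 members and positive in 40, with a median of -0.81 against -0.12 over all genes. The choice bears on this difference, since it took genes that were low before the middle window and had a late level under 2 times the middle level, and the excess over all genes is not a result about the members. Among the 72 genes with a higher late level 18 had a lower late slope, and among the 53 with a lower late level 3 had. The count of 12 fell to 7 without the embryo at 150 minutes, to 7 without that at 280 minutes and to 6 without that at 410 minutes, and the count of 2 fell to 1 without that at 150, 170, 300, 320, 410 or 430 minutes.

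CJA43237 was, after CJA39788 (-18.2 ± 1.83 per 100 minutes, SE, adjusted p = 4.39e-11), the member with the strongest downward bend. Its slope was 4.21 lower per 100 minutes in the late window (a difference of -4.21 ± 0.87, SE, adjusted p = 0.0011). It had 0 reads in all 16 early embryos. Its pooled level was 324 CPM at 140 to 210 minutes (embryos from 0 to 609 CPM, median 255 CPM), 978 CPM at 220 to 290 minutes (289 to 1722 CPM, median 1166 CPM), 1978 CPM at 300 to 360 minutes (1567 to 2762 CPM, median 1705 CPM) and 1050 CPM at 370 to 430 minutes (738 to 1466 CPM, median 851 CPM). In plain CPM, all 7 embryos at 300 to 360 minutes were above all 7 at 370 to 430 minutes. The scaling factors of the fit (TMM) were 1.88, 2.53 and 1.36 at 300, 310 and 320 minutes and 0.677 at 370 minutes. Scaled by them, the 2 sets overlapped. The late change of CJA43237 alone did not pass the test. The 2 upward bends were those of the members with a trough: the difference was 5.04 ± 1.12 for CJA01785 (SE, adjusted p = 0.0025) and 3.06 ± 0.91 for CJA03775 (SE, adjusted p = 0.0344). The first held in every setting run (adjusted p up to 0.0311) and the other was lost in 4 of 8 settings and without 6 of 30 embryos (up to 0.157). The bend of CJA39788 was lost with DESeq2 alone (adjusted p = 0.0624), and that of CJA43237 held in all settings run (up to 0.00324).

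**Figure D5:**
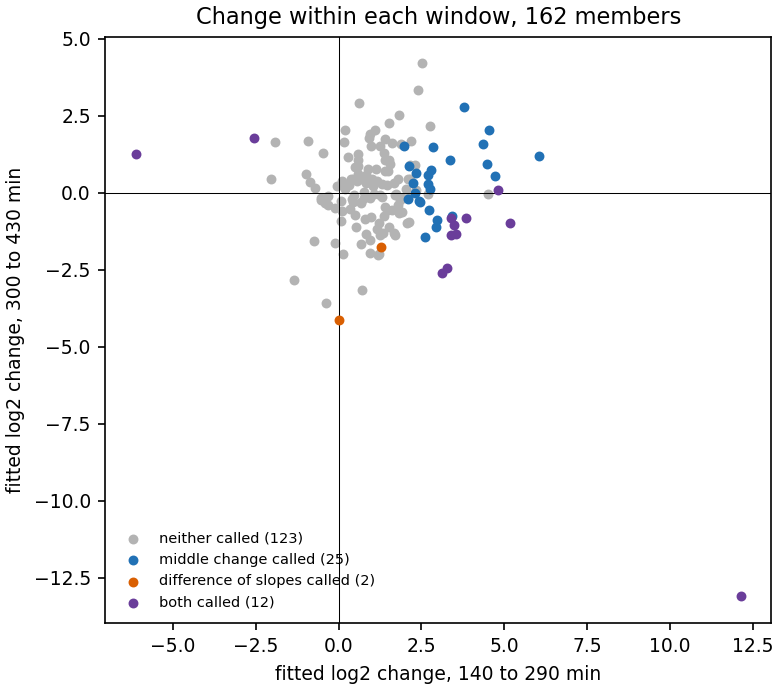
Fitted log2 change from 300 to 430 minutes against that from 140 to 290 minutes, 1 point for each of the 162 members; colours show which tests passed an adjusted p of 0.05 in edgeR. The middle change is positive in 142 members and the late change in 83, and CJA39788 lies alone at 12.13 and -13.1.

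The embryos at 110 to 130 minutes, the last of the early library, show the module before the library border, at low depth. They held 174 reads of members among 24042 listed reads, and 90 members had 0 reads, which at this depth allows up to 125 CPM for a member. With 3 embryos, 24 members had at least 3 reads. Against 10 to 50 minutes, 12 members were higher (7.41%) where 1.31% of all genes passed, and 0 were lower where 1.62% of all genes did, by the edgeR test of 3 against 5 embryos. At an unadjusted p under 0.05 there were 32 members in either direction (19.8%), near the 17.5% of all genes. The choice bears on the direction here: members had to be low at 1 to 4 cells and at 60 to 100 minutes, on both sides of the 10 to 50 minute embryos, and few could test as lower. limma-trend called 2 members higher and 1 lower. In pooled levels, 69 members (42.6%) were higher at 110 to 130 minutes, against 36.0% of all genes. Among the genes of the same rise, 5 of the 53 with a lower late level and 1 of the 72 with a higher late level passed.

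These 12 members rest on few reads. Each had from 2 to 6 reads in the 3 embryos, 49 reads in all, and 7 of the 12 had 0 reads at 10 to 50 minutes. Of the 49 reads, 28 were in the embryo at 130 minutes, 16 in that at 120 minutes and 5 in that at 110 minutes. Without the embryo at 130 minutes 1 member passed, and without that at 120 minutes 6 did. The embryos at 110, 120 and 130 minutes carry the barcodes 14, 15 and 16, which in the middle library belong to the embryos at 160, 150 and 140 minutes, and the part of shared barcodes in these reads was not tested.

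CJA04214 had 0 reads in the 5 embryos at 10 to 50 minutes. At 110, 120 and 130 minutes it had 2, 0 and 4 reads, or 1058, 0 and 537 CPM. Its pooled level was at least 72.6-fold higher there, with 3 reads over the 5 earlier embryos as the floor and the 6 reads taken as exact, and the 95% exact counting interval of the ratio starts at 42.7-fold (fitted log2 change 7.50 ± 1.50, SE, adjusted p = 9.31e-04 in edgeR). Without the embryo at 130 minutes its adjusted p was 0.135, and down to 0.000304 without another. CJA02673 likewise had 0 reads at 10 to 50 minutes and 0, 1 and 5 reads at 110, 120 and 130 minutes, or 0, 68.0 and 672 CPM, with the same floor and interval end (fitted log2 change 7.32 ± 1.54, SE, adjusted p = 0.0015). Its adjusted p was 0.386 without the embryo at 130 minutes, down to 0.00189 without another, and 0.0881 with limma-trend. CJA02673 already had 14 reads at 90 minutes and 13 at 100 minutes, or 308 and 113 CPM, so its reads were present before 110 minutes.

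In the embryo at 100 minutes more members stood above their pooled level of 60 to 90 minutes than below it. There were 89 above (54.9%), against 45.0% of all genes, and 40 below. The summed level was 6034 CPM at 100 minutes and 3525 CPM over 60 to 90 minutes. The embryo at 100 minutes belongs to the set used in the choice, so this was not tested.

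The position of the 3′ end was a property that the choice did not use apart from the limit to 1 peak. The location given for the peak, a number within the gene whose origin is not stated, had a median of 3432 in the members (quartiles 1364 and 5307) and 2678 in the other 3230 single-peak genes (quartiles 924 and 5228), and was not tested. The peak held a median of 94.3% of a member's reads, and 94.1% in the other single-peak genes, and 53 members had under 90% of their reads in it. The share was 94.0% in the middle window and 94.7% in the late one.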

How the data were processed

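Read counts per gene and per 3′ end peak of 46 single embryos are whole numbers as the authors deposited them, with no normalization stated. The location of a peak within its gene is a score the authors deposited, with no origin given. Among the tools, HTSeq 0.5.4p3, Bowtie2 2.1.0 and CASAVA 1.8 appear in the submitters' processing notes, without their roles. Genome build, annotation and peak caller: not given in the sources used here. Members and gene lists were chosen with earlier results of these data known.

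Gene totals were tested with edgeR 4.0.16 (R 4.3.3, TMM factors) in 1 fit of 46 embryos, with 4 early windows and a level and slope for each of the middle and late windows. All 3955 genes were tested with no further filter on low counts, so all 162 members were tested, and p-values were Benjamini-Hochberg adjusted with a threshold of 0.05, two-sided. The script was tested on simulated counts. CPM values are plain reads per 1000000 listed reads, pooled by summing, so deep embryos weigh more. Fitted changes use TMM-scaled libraries. Where a span had 0 reads, 3 reads over the span were used as a floor, and intervals are 95% exact counting intervals. Per comparison, up to 2 members per direction with the largest fitted value among those called, with a mean of at least 20 CPM, are named, and also the 2 with the highest middle level. Alternatives were TMM with singleton pairing, library size alone, DESeq2 size factors, DESeq2 1.42.0, limma-trend (limma 3.58.1, prior count 2), edgeR's filterByExpr, subsets of embryos and each embryo left out. The table holds 0 lines that name no gene.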

Additional observations from a re-analysis of the deposited data

Results flagged for a closer look

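A single embryo far from the others was looked for in 24 groups of 5 embryos. These were the named members and the summed level, at 10 to 50 and at 60 to 100 minutes. The limit marks about 1 in 20 groups of normally distributed values, a rate that does not hold for sparse counts. A gene with reads in only 1 embryo of the group is always marked, and a gene with 0 reads in the group cannot be. There were 3 cases, all at 60 to 100 minutes and all the same embryo. At 100 minutes CJA01785 had 8.72 CPM, CJA03775 had 78.5 CPM and CJA06548 had 104.6 CPM, and the 4 embryos at 60, 70, 80 and 90 minutes had 0 reads of each. These are 1, 9 and 12 reads. The embryo at 100 minutes has the latest time of its set.

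A difference between the course in the late and in the middle window was found for 4 named members by the test of the difference itself. Per 100 minutes on the log2 scale, the late slope was higher by 5.04 for CJA01785 and by 3.06 for CJA03775. The late minus the middle slope was -18.2 for CJA39788 and -4.21 for CJA43237. The value for CJA39788 depends on the prior count, since it had 0 reads from 350 minutes on.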

How the results depend on the processing

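The count of members that rose in the middle window was 25 to 37 when 1 embryo was left out and 28 to 43 under the other settings. The other counts were less stable, and the cause was not tested unless named. For members that fell in the middle window, filterByExpr, which left 70 of 162 members to test, gave 0, limma-trend gave 1 and leaving out 1 embryo 1 to 3. In the late window, risers numbered 1 with library size alone, 10 with limma-trend, 1 without the shallow embryos, 4 with only the middle and late embryos and 1 to 5 without 1 embryo. Late fallers numbered 2 without the shallow embryos, 9 with library size alone, 7 with DESeq2 size factors and 2 to 6 without 1 embryo. Higher late slopes numbered 0 with filterByExpr, 1 with DESeq2, 1 without the shallow embryos and 1 to 3 without 1 embryo. Lower late slopes numbered 19 with library size alone, 7 with limma-trend and 6 to 17 without 1 embryo. At 110 to 130 minutes limma-trend called 2 higher and 1 lower, and leaving out 1 embryo gave 1 to 12 higher and 0 lower. A run without the shallow embryos was not possible there, since all 3 are shallow. With 25% in place of 50% of the middle level, 135 members first reached it at 140 to 170 and 25 at 180 to 210 minutes. A further 1 did at 220 to 250 and 1 at 260 to 290 minutes. With spans of 2 embryos, 116 members first had 50% at 140 to 170 and 44 at 180 to 210 minutes. The count was then 2 at 220 to 250 and 0 at 260 to 290 minutes. The summed level at 110 to 130 minutes was 9270 CPM as a median over embryos. Of 114 values of named members under settings other than leaving out 1 embryo, 95 kept direction and call, 19 lost the call and 0 changed sign. Some of these settings left out sets of embryos. With 1 embryo left out, 233 of 256 kept both and 23 lost the call.

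Members chosen by the mean of single-embryo CPM would number 152 (113 shared), without the deepest embryo of each window 149 (119 shared), with TMM-adjusted sizes 173 (148 shared), without the embryos at 330 and 340 minutes 153 (145 shared), and without the shallow embryos 162 (162 shared). No paired analysis was possible because each time has 1 column in the table and the labels give no shared replicate numbers. Depth is a limit at 110 to 130 minutes, where 0 reads allow up to 125 CPM.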
